A study of Homo sapiens with 9 samples.

Results

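The S100 proteins and calretinin measured in OVCAR3 cells are 10 genes of calcium-binding proteins, chosen by name with earlier results of these data known. The genes are *S100A2*, *S100A4*, *S100A6*, *S100A10*, *S100A11*, *S100A13*, *S100A14*, *S100A16*, *S100P* and *CALB2*, which encodes calretinin. They are 10 of the 60660 genes counted by RNA-seq. OVCAR3 is an epithelial ovarian cancer cell line, and the study changed its level of CTCFL (also called BORIS), a testis-specific paralog of the DNA-binding factor CTCF that many tumours express. The 9 libraries were 3 of Control cells, 3 of cells overexpressing *CTCFL* (CTCFL-OE) and 3 of *CTCFL* knockdown cells (CTCFL-KD). CTCFL-OE cells were transiently transfected with the plasmid pCpGfree-vitroHBORIS (2 µg) and collected 48 h later. The labels give no treatment for Control, while the study's methods name the plasmid pCpGfree-vitroHLacZ for it. The CTCFL-KD RNA came from knockdown experiments of earlier work, so the knockdown and the experiment it came from cannot be told apart in the comparison with Control. All groups were 1 cell line, and each replicate pooled 3 technical replicates.

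S100 proteins are small proteins with paired EF-hands, helix-loop-helix folds that hold calcium. Most act as dimers that expose a binding surface for a partner protein when calcium rises, and most of their genes stand together in a cluster on chromosome 1q21. Calretinin is a larger EF-hand protein that buffers calcium in neurons, and pathologists use it as a marker of mesothelial cells. In carcinomas, S100 proteins have been studied mainly for roles in cell motility, membrane repair and invasion.

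In the GRCh38 annotation, 8 of the genes lie on the minus strand of chromosome 1. *S100A10* (ENSG00000197747.9) spans chr1:151982915-151993859 and *S100A11* (ENSG00000163191.6) spans chr1:152032506-152047907. The other 6 stand further along, from *S100A6* (ENSG00000197956.10, chr1:153534599-153536244), *S100A4* (ENSG00000196154.12, chr1:153543613-153550136) and *S100A2* (ENSG00000196754.13, chr1:153561108-153567890) to *S100A16* (ENSG00000188643.11, chr1:153606886-153613145), *S100A14* (ENSG00000189334.9, chr1:153614255-153616986) and *S100A13* (ENSG00000189171.14, chr1:153618787-153631360). *S100P* (ENSG00000163993.7) lies on the plus strand at chr4:6693878-6697170, and *CALB2* (ENSG00000172137.19) on the plus strand at chr16:71358713-71390436. The 250 bases before the transcription start are printed for 4 of the S100 genes: the gene with the lowest CTCFL-OE to Control ratio (*S100A2*), the S100 gene that was lower than Control in all 6 treated libraries (*S100A10*), its neighbour *S100A11*, and the gene that passed between CTCFL-KD and CTCFL-OE in the fit to all libraries (*S100A4*). The sequences are from RefSeq (GRCh38.p14), are read 5′ to 3′ along the gene, and have the letters of any searched motif in capitals.
S100A2, chr1:153565845-153566094, minus strand: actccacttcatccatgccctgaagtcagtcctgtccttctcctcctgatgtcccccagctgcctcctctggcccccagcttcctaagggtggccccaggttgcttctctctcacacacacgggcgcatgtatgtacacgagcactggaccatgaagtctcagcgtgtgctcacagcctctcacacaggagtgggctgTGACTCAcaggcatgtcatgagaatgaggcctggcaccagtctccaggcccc
S100A4, chr1:153545807-153546056, minus strand: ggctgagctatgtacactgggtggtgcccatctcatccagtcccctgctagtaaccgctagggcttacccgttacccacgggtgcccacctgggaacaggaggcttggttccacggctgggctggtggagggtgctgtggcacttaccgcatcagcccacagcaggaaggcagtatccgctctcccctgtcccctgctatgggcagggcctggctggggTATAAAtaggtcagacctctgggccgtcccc
S100A10, chr1:151993860-151994109, minus strand: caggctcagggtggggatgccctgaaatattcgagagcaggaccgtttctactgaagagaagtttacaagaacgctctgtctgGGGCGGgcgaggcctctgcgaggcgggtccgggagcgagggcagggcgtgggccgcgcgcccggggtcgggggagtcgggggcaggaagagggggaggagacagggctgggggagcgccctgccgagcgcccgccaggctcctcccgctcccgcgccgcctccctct
S100A11, chr1:152037005-152037254, minus strand: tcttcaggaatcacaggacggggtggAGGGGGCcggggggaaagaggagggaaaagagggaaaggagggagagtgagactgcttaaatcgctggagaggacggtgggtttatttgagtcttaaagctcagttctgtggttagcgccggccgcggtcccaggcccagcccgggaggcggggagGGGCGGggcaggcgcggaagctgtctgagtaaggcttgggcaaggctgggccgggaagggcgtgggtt
The RefSeq promoter table held 13 windows for 9 of the 10 genes, all but *CALB2*. Each window is 300 bases, from 250 before the start to 50 after it, and the motifs were searched on both strands. The AP-1 letters TGANTCA stood in 1 of the *S100A2* windows, the printed one, 52 bases before the start and in 7.71% of all 35116 promoter windows. TATAAA stood 31 bases before the start of *S100A4*, in the window of *S100P*, in 1 window of *S100A13*, and in 11.5% of all windows. AGGGGGC, core letters of the CTCF and CTCFL motif, stood in the windows of *S100A11* and *S100A14* and in 14.4% of all windows. The GC box GGGCGG, in 45.0% of all windows, stood in those of *S100A6* (3 matches), *S100A10* and *S100A11* and in 1 window each of *S100A13* and *S100A16*. In the printed *S100A11* sequence AGGGGGC comes first and GGGCGG second. The longer CTCF consensus, in 0.0655% of all windows, was in none of the 13. The GC content of the *S100A10* window was 71.7% with 32 CpG dinucleotides, against 61.0% and 5 in the printed *S100A2* window and medians of 58.7% and 14 over all windows.

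The libraries held 14332622 to 24490080 counts. Control libraries held 6, 9 and 10 counts of *CTCFL* itself, CTCFL-OE libraries 36, 34 and 72, and CTCFL-KD libraries 0, 1 and 0, so its order followed the labels. CTCFL-KD replicate 1 stood apart from the other 8 libraries. Its scaling factor was 0.7747, against 0.9449 to 1.088 elsewhere, and its levels leaned toward short transcripts: genes of at most 1672 nt had a median log2 difference from the Control mean of 0.81 there, and of -0.13 in each of the other CTCFL-KD libraries. The transcripts of the 10 genes, at 434 to 1454 nt, all fall in that short class, so the CTCFL-KD results of these genes and the CTCFL-KD counts of the gene lists are given with and without this library. Mitochondrial genes took 6.16 to 6.52% of the counts in Control. In replicates 1, 2 and 3 they took 7.40, 12.4 and 14.9% with overexpression, and 11.8, 9.64 and 7.80% with knockdown. Of 16 genes of ovarian carcinoma epithelium, including *PAX8*, *EPCAM* and *KRT7*, 15 reached 1 CPM in every library. *ESR1*, with 2 to 11 counts, was the exception.

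Per length, in RPKM (counts scaled to library size by TMM and to kilobases of the union of annotated exons), *S100A6* had the highest level of the family in Control, at 641.5 ± 36.5 (SD, n = 3). *S100A6*, or calcyclin, binds the ubiquitin-ligase adaptor CACYBP. The annexin A2 partner *S100A10* followed at 561.9 ± 14.1 RPKM and the annexin A1 partner *S100A11* at 509.5 ± 13.6. *S100A4*, which binds non-muscle myosin, stood at 161.9 ± 1.34 RPKM, *S100A16* at 106.3 ± 8.34, the p53 and p63 associated *S100A2* at 59.1 ± 3.26, *S100A14* at 49.9 ± 0.839 and *S100A13*, known for the release of FGF1, at 27.9 ± 2.34. *S100P* (0.442 ± 0.128 RPKM) and *CALB2* (0.0943 ± 0.0519) were near the detection limit. In this order, the 3 Control libraries of each gene lay wholly above those of the next gene. The place of *S100A13* depends on the length used, since its exon union is 2216 nt and its transcript 477 nt: per kilobase of transcript it was at 129.6 ± 10.9 CPM, above *S100A2* at 93.5 ± 5.16 and *S100A14* at 60.4 ± 1.01, while the other genes kept their order.

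Between groups, levels are given in CPM (counts scaled to library size by TMM), which compare a gene with itself across libraries. The 8 S100 genes of chromosome 1 had lower levels in CTCFL-OE than in Control in every library, while *CALB2* was higher in every library. Their summed level was 2013 to 2122 CPM in Control, and 1400, 1034 and 1062 CPM in CTCFL-OE. Of the 8 genes, 8 had all 3 CTCFL-OE libraries below all 3 Control libraries, an order that 20.8% of the 17794 genes tested showed. The 9 genes with enough counts to be tested had a median log2 fold change of -0.80, against -0.01 over all genes tested. The genes were chosen with earlier results of these data known, so these contrasts with all genes are descriptions only. In the fit to all 9 libraries only *CALB2* passed (edgeR's quasi-likelihood test, Benjamini-Hochberg adjusted p under 0.1), which makes 1 of 9 against 3.15% of all genes tested. *CALB2* was also the only differentially expressed gene (DEG) of the 9, by a log2 fold change beyond 1 beside that p, against 2.07% of all genes. It met the filter on low counts only through the treated libraries, where it was high. With at least 10 counts in every library it was not tested, and 0 of 8 genes passed (3.3% of all genes).

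**Figure D1:**
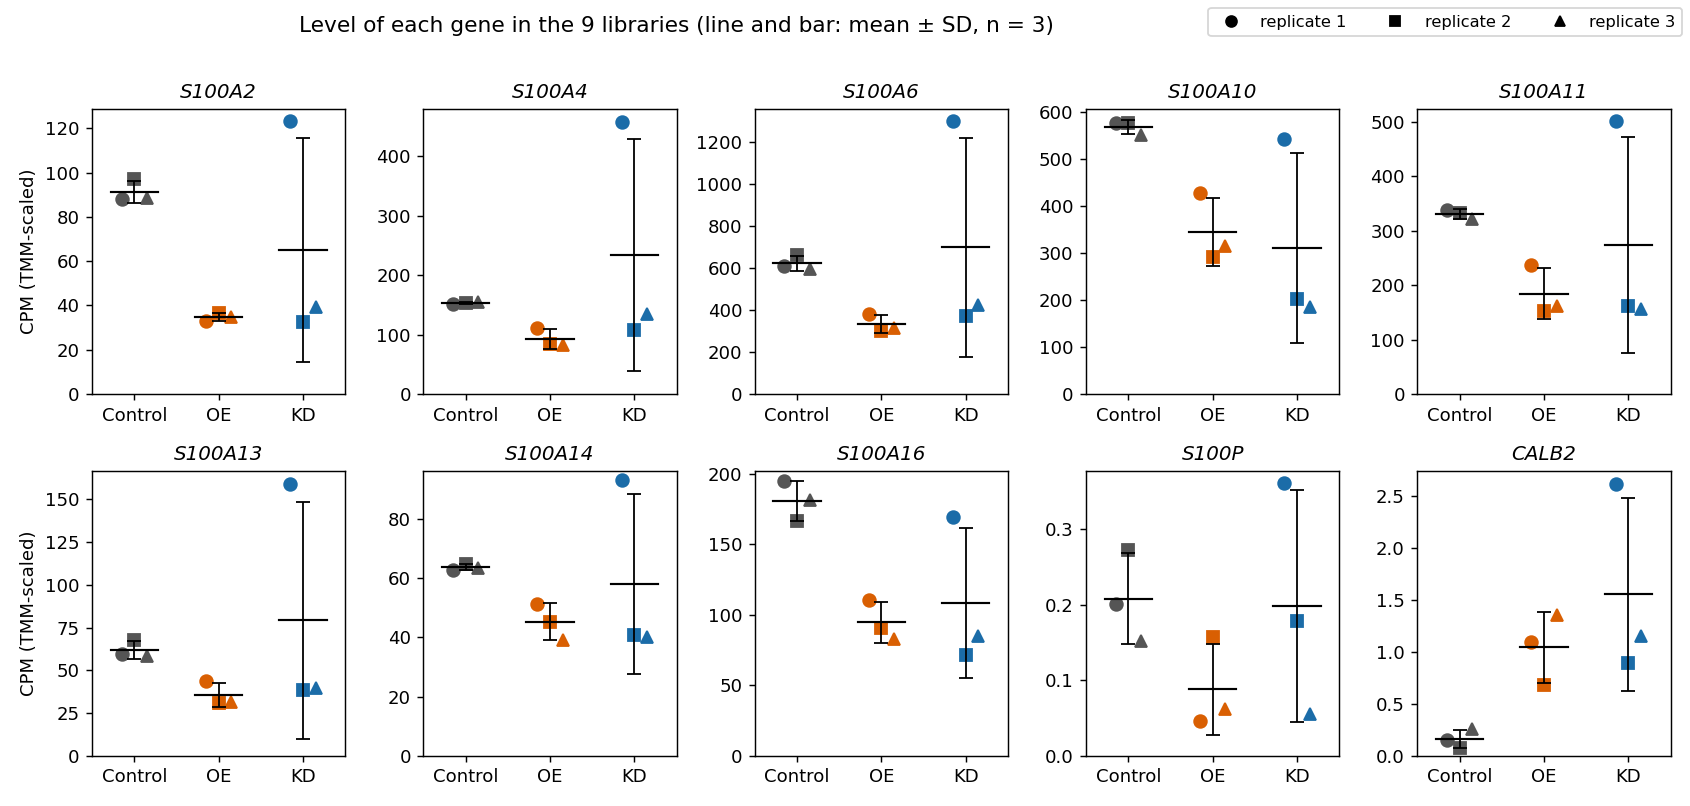
Level of each gene in CPM (TMM-scaled, linear axis from 0, own scale per panel) in Control, CTCFL-OE (OE) and CTCFL-KD (KD), with 1 point per library, shaped by replicate, and a line and bar for mean ± SD (n = 3). The CTCFL-OE points of the 8 chromosome 1 S100 genes lie below the Control points, and CTCFL-KD replicate 1 lies above the other CTCFL-KD libraries in all 10 panels.

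*S100A2*, an epithelial S100 protein reduced in several carcinomas, had the lowest ratio. Its level was 88.3, 97.2 and 88.7 CPM in Control and 33.2, 36.6 and 34.7 CPM in CTCFL-OE. The CTCFL-OE libraries were close to each other and far below Control, and the ratio of the means was 0.381. The fitted log2 fold change was -1.39 ± 0.41 (SE), with an edgeR adjusted p of 0.128.

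The annexin partners were among the most abundant of the family. *S100A10*, which tethers annexin A2 to the plasma membrane and binds plasminogen, had 577, 577 and 552 CPM in Control and 428, 292 and 316 CPM in CTCFL-OE. Replicate 1 was the least reduced CTCFL-OE library, and the groups did not overlap. *S100A10* had a log2 fold change of -0.72 ± 0.37 (edgeR adjusted p = 0.334). *S100A11* had 338, 333 and 321 CPM in Control and 238, 154 and 162 CPM in CTCFL-OE, again with replicate 1 nearest to Control. Its log2 fold change was -0.84 ± 0.40 (edgeR adjusted p = 0.306).

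*S100A6* had 612, 662 and 594 CPM in Control and 384, 301 and 314 CPM in CTCFL-OE, a ratio of means of 0.535. *S100A4*, known from metastasis models, had 152, 154 and 154 CPM in Control and 111, 84.3 and 82.4 CPM in CTCFL-OE. The groups of both genes were apart, with CTCFL-OE replicate 1 again nearest to Control. Their edgeR log2 fold changes were -0.90 ± 0.41 (adjusted p = 0.279) and -0.72 ± 0.45 (adjusted p = 0.419). *S100A16* had 195, 167 and 181 CPM in Control and 110, 90.6 and 82.4 CPM in CTCFL-OE. Its log2 fold change was -0.94 ± 0.29 (edgeR adjusted p = 0.144). *S100A13* had 59.6, 67.8 and 58.1 CPM in Control and 43.9, 31.0 and 31.6 CPM in CTCFL-OE, a ratio of means of 0.574. *S100A14* had 62.9, 64.9 and 63.3 CPM in Control and 51.4, 45.4 and 39.2 CPM in CTCFL-OE, a ratio of means of 0.711 and the smallest difference of the 8. The mitochondrial share of counts was also nearest to Control in CTCFL-OE replicate 1, and its part in these differences was not tested.

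The fit shares 1 estimate of spread between the 3 groups, and CTCFL-KD replicate 1 enters that estimate. Without that library, the log2 fold change of *S100A2* in CTCFL-OE was -1.39 ± 0.11 (edgeR adjusted p = 0.000151), and 9 of the 9 genes tested passed, *CALB2* higher and the 8 S100 genes lower. In that fit 27.4% of all genes tested passed, 14% higher and 13.4% lower. A fit to only the 6 Control and CTCFL-OE libraries also passed 9 of 9, against 3450 of 17104 genes tested (20.2%). With offsets for transcript length and GC content in all 9 libraries, 7 passed (1 higher, 6 lower) against 11.3% of all genes (6.55% higher, 4.79% lower), and *S100A4* and *S100A13* did not, with edgeR adjusted p of 0.130 and 0.103.

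**Figure D2:**
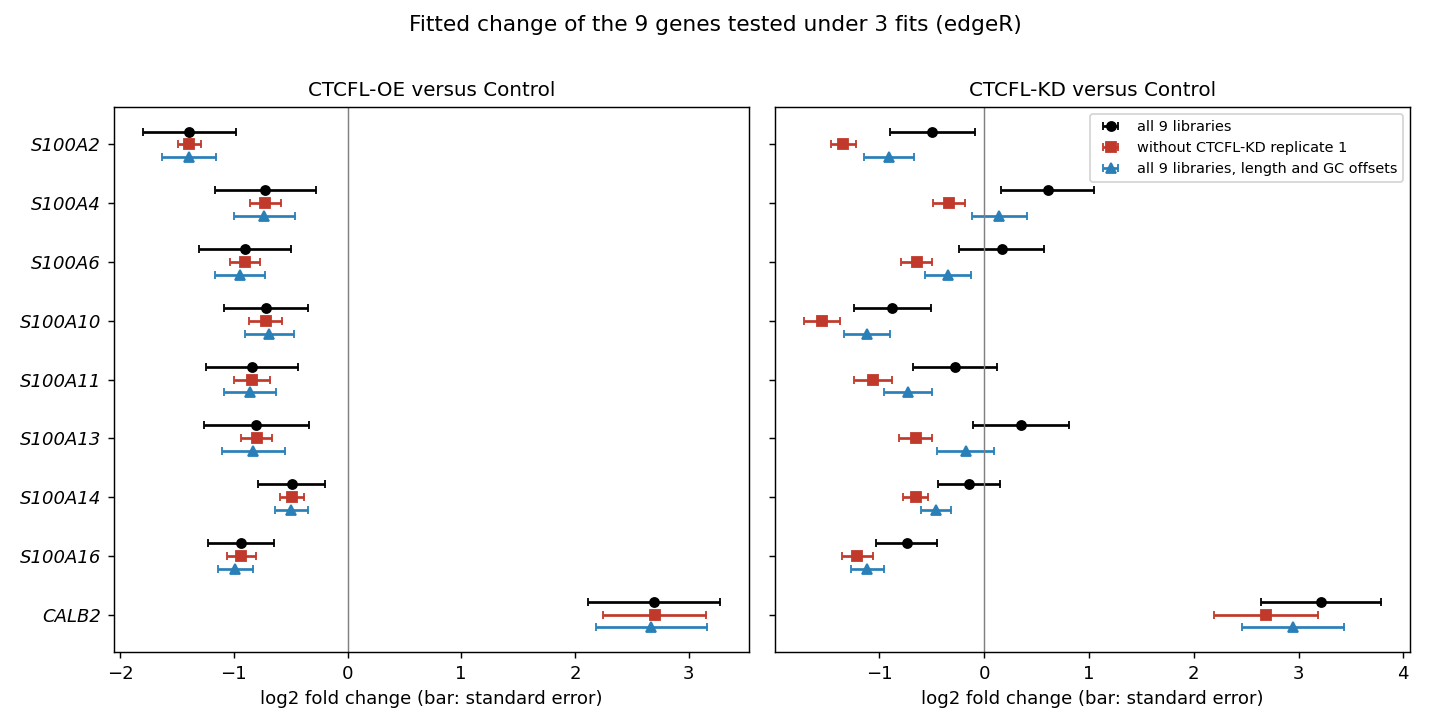
Log2 fold change against Control (horizontal axis, bars are standard errors from edgeR) of the 9 genes tested, in CTCFL-OE and CTCFL-KD, under 3 fits. In CTCFL-OE the 3 fits gave like values with shorter bars once CTCFL-KD replicate 1 was left out, and in CTCFL-KD the S100 values moved to lower levels without that library, *S100A2* from -0.49 to -1.34.

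*CALB2* rose from very few counts. Control held 3, 2 and 5 counts, the CTCFL-OE libraries 24, 13 and 22, and the CTCFL-KD libraries 29, 15 and 21. In CPM the means of the 3 groups, in the same order, were 0.16 ± 0.0882, 1.04 ± 0.339 and 1.55 ± 0.930 (SD, n = 3). All 6 treated libraries were above all 3 Control libraries, an order found for 16.3% of all genes tested in CTCFL-OE and for 28.7% in CTCFL-KD. From the summed counts, the CTCFL-OE to Control ratio was 6.73, with an exact 95% interval of 3.42 to 14.8 that covers counting error only. The log2 fold change was 2.69 ± 0.58 in CTCFL-OE (edgeR adjusted p = 0.0555) and 3.22 ± 0.57 in CTCFL-KD (adjusted p = 0.00159). The CTCFL-OE call was lost in 5 of the 9 fits that left out 1 library, those without any of the Control libraries or without CTCFL-OE replicate 2 or 3, with adjusted p up to 0.254. The CTCFL-KD call held in all 9, with adjusted p up to 0.0108 and log2 fold changes of 2.69 to 3.67.

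Since calretinin marks mesothelium, the level of 12 other mesothelial genes was measured beside it. Their summed level was 93.1 to 95 CPM in Control, 50.1 to 65.1 CPM with overexpression and 119, 76.1 and 73.5 CPM with knockdown, and 6 of the 12 reached 1 CPM. In CTCFL-OE, 1 of the 6 tested fell and none rose (16.7%, against 3.15% of all genes tested). The gene that fell was *KRT6A*, a keratin, with a log2 fold change of -2.34 (edgeR adjusted p = 0.000605). In CTCFL-KD 3 fell, *KRT6A*, *KRT5* and *CPA4*, and 1 rose, the uroplakin gene *UPK3B*, from 7.88 ± 1.02 to 65.8 ± 27.1 CPM (edgeR adjusted p = 4.01e-05). These are 66.7% of the 6, against 38.2% of all genes. Leaving out CTCFL-KD replicate 1, 1 rose and 1 fell in CTCFL-OE (33.3% against 27.4%) and 2 rose and 3 fell in CTCFL-KD (83.3% against 49.9%). Among the rest of the list, *LRRN4* held 70 to 185 counts and *PDPN* 45 to 165 counts in each library, *ITLN1* had 0 or 1 count and *DES* 0 to 3 counts, and *THBD* had none in any. The part of mesothelium-like transcription in the rise of *CALB2* was not tested.

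*S100P*, a secreted S100 protein of carcinomas that binds ezrin and the receptor AGER, was below the filter on low counts and was not among the 9 genes tested. Its counts were 4, 7 and 3 in Control, 1, 3 and 1 with overexpression and 4, 3 and 1 with knockdown. The ratio of summed counts to Control was 0.408 (exact 95% interval 0.115 to 1.2) in CTCFL-OE and 0.81 (0.294 to 2.07) in CTCFL-KD. Both intervals hold 1, so no difference was detectable at this depth. With no filter on low counts it was tested and did not pass in either group (edgeR adjusted p = 0.645 with overexpression and 0.858 with knockdown), nor did it pass with DESeq2 where that gave an adjusted p.

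In CTCFL-KD, replicates 2 and 3 had all 8 chromosome 1 S100 genes below Control, while replicate 1 had 6 of the 8 above it. The share of all genes with replicates 2 and 3 below Control was not counted. Only *S100A10* was below Control in all 3 libraries, at 544, 201 and 186 CPM against 577, 577 and 552 CPM in Control, and 27.6% of all genes tested showed that order. The summed level of the 8 genes was 3352 CPM in CTCFL-KD replicate 1, above each Control library, and 1026 and 1103 CPM in the other libraries. In the fit to all 9 libraries 1 of 9 genes passed at an adjusted p under 0.05, against 38.2% of all genes tested. It was *CALB2*, again the only DEG, against 23.2%, and it met the filter on low counts only through the treated libraries. With at least 10 counts in every library 0 of 8 genes passed (38.6% of all genes). *S100A10*, with a log2 fold change of -0.87 ± 0.37, had an edgeR adjusted p of 0.0834. Control and CTCFL-KD libraries of the same number deviated together, and with the replicate number as a block *S100A10* (log2 fold change -1.04, edgeR adjusted p = 0.0207) and *S100A16* (-0.83, adjusted p = 0.0204) passed beside *CALB2*. The sources used here do not state such pairs, and the knockdown RNA came from earlier experiments. Both S100 calls thus rest on an assumed pairing.

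*S100A4* and *S100A6* show how far the libraries of the group were apart. *S100A4* had 459, 108 and 134 CPM in CTCFL-KD and *S100A6* had 1302, 372 and 424 CPM. Replicate 1 was 2.99 times the Control mean for *S100A4* and 2.09 times for *S100A6*, and the other libraries were below every Control library. The log2 fold changes over all 3 libraries were 0.61 ± 0.44 and 0.17 ± 0.40, with edgeR adjusted p of 0.301 and 0.768. *S100A2*, at 123, 32.5 and 39.4 CPM, and *S100A11*, at 503, 162 and 155 CPM, had the same pattern, as did *S100A13* at 159, 38.7 and 39.8 CPM and *S100A14* at 93.1, 40.9 and 40.0 CPM. *S100A16*, at 169, 71.4 and 84.6 CPM, had replicate 1 inside the Control range.

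Without CTCFL-KD replicate 1, 8 of 9 genes passed in CTCFL-KD, *CALB2* higher and 7 S100 genes lower, against 49.9% of all genes tested (26.2% higher, 23.7% lower). Of the 8 chromosome 1 genes of the family, *S100A10* had the lowest log2 fold change, at -1.55 ± 0.17 (edgeR adjusted p = 6.25e-05). *S100A2* followed at -1.34 ± 0.12, *S100A16* at -1.21 ± 0.15 and *S100A11* at -1.06 ± 0.18, with edgeR adjusted p of 0.000911 or less. *S100A4* did not pass, at -0.34 ± 0.15 (edgeR adjusted p = 0.0878). With length and GC offsets and all 9 libraries, 6 passed (1 higher, 5 lower) against 45% of all genes (24.1% higher, 20.9% lower), and *S100A4*, *S100A6* and *S100A13* did not.

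**Figure D3:**
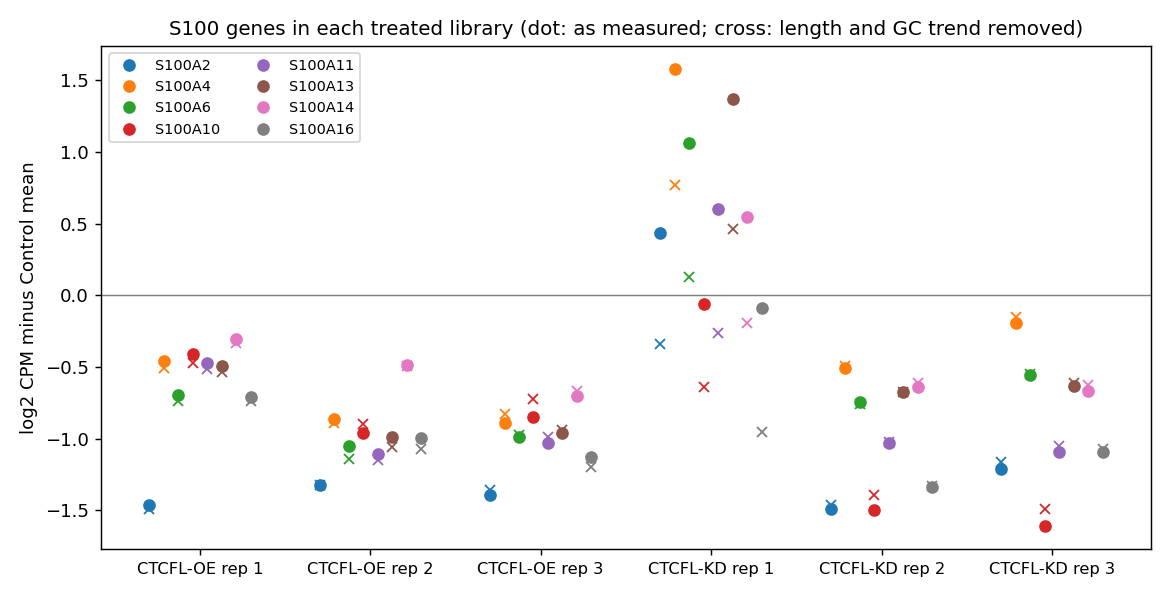
Log2 CPM minus the Control mean (vertical axis) of the 8 chromosome 1 S100 genes in the 6 treated libraries, as measured (dots) and after the length and GC trend of the library was taken off (crosses). In CTCFL-KD replicate 1 the crosses lie below the dots for all 8 genes, 5 of them below 0, and in the other 5 libraries dots and crosses lie close together.

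The trend of level on transcript length and GC content was fitted per library over tested genes of known length and GC with a mean log2 CPM above 1. It accounted for a log2 difference of 0.58 to 0.94 at these 8 genes in CTCFL-KD replicate 1. The measured differences from the Control mean ran from -0.09 for *S100A16* to 1.58 for *S100A4*. After the trend was taken off, *S100A4* stayed at 0.77, *S100A13* at 0.47 and *S100A6* at 0.13, while *S100A16* was at -0.96, *S100A10* at -0.64, *S100A2* at -0.34, *S100A11* at -0.26 and *S100A14* at -0.19. *CALB2* was at 2.73 after the trend and 3.40 before it, though its mean level lay below the limit for that fit. The level in this library was 2.17 times (*S100A16*) to 4.06 times (*S100A13*) the mean of CTCFL-KD replicates 2 and 3 over the 8 genes. The source of this difference was not tested.

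The comparison of CTCFL-KD with CTCFL-OE asks where opposite changes of *CTCFL* differ. In the fit to all 9 libraries 1 of 9 genes passed at an adjusted p under 0.05, against 26.8% of all genes tested, and was a DEG, against 17%. It was *S100A4*, higher in CTCFL-KD by a log2 fold change of 1.33 ± 0.45 (edgeR adjusted p = 0.0496), with 1 CTCFL-KD library, replicate 2 at 108 CPM, inside the range of CTCFL-OE. Without CTCFL-KD replicate 1 its difference was 0.38 ± 0.15 (edgeR adjusted p = 0.0647). It missed the threshold in 10 of the 21 alternative fits. Without that library 39.7% of all genes tested passed, and of the 9 only *S100A10*, lower in CTCFL-KD by a log2 fold change of -0.83 ± 0.17 (edgeR adjusted p = 0.00326). Its level there was 201 and 186 CPM, below the 292 to 428 CPM of CTCFL-OE. *CALB2* differed by 0.52 ± 0.45 between the treated groups with all libraries (edgeR adjusted p = 0.410) and by -0.01 ± 0.38 without CTCFL-KD replicate 1. Control libraries were shared by the comparisons of each treated group with Control.

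Across the 9 libraries, likeness of 2 genes was measured as the root mean square difference of their centred log2 CPM profiles, a description over libraries that share scaling and length trends. *S100A6* and *S100A13* were each other's nearest gene of all tested, at 0.113, and *S100A13* was also nearest to *S100A4*, at 0.148. For the 3 genes whose group means ranged most, the nearest were *MYT1* (0.376) and *NUPR1* (0.405) for *CALB2*, *FAM131B-AS2* (0.285) and *S100A11* (0.301) for *S100A2*, and *PPP1R14B-AS1* (0.12) and *PRR13* (0.136) for *S100A10*.

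Of the other S100 genes, 4 of 11 had enough counts to be tested, and none passed in CTCFL-OE, against 3.15% of all genes (1 fell without CTCFL-KD replicate 1, which is 25% against 27.4%), where their median log2 fold change was -0.53. In CTCFL-KD 1 of the 4 passed (25% against 38.2%), and all 4 did without CTCFL-KD replicate 1 (1 higher and 3 lower, against 49.9% of all genes). *S100A9*, a calprotectin subunit of myeloid cells and stressed epithelium, rose in CTCFL-KD from 0.932 ± 0.121 to 3.64 ± 2.63 CPM (log2 fold change 1.92 ± 0.49, edgeR adjusted p = 0.0105). Its log2 fold change was 1.19 (edgeR adjusted p = 0.012) when CTCFL-KD replicate 1 was left out. The other 3, *S100A1*, *S100A3* and *S100A5*, had log2 fold changes of -0.35, -0.99 and -0.95 in CTCFL-KD over all libraries, with edgeR adjusted p of 0.427, 0.0616 and 0.195. Without CTCFL-KD replicate 1 they fell, with log2 fold changes of -0.95, -1.64 and -2.16 and edgeR adjusted p of 0.00117 or less. *S100A1* overlaps *S100A13* on the opposite strand and *S100A3* overlaps *S100A4* on the same strand, over 3435 and 1930 bases. They had 3159 and 492 counts over all libraries. Reads from the shared bases of such pairs are uncertain: those of the same strand cannot be told apart by strand, and for the opposite strands the strand setting of the counting is not given in the sources used here. The treatment of multi-mapped reads is not given either, which touches *S100A11*, whose 8 processed pseudogenes held 1 count in all, against 43574 for the gene.

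Among 23 genes of S100 binding partners, 19 were tested. In CTCFL-OE 1 passed (5.26%, against 3.15% of all genes tested), *TRPV6*, an epithelial calcium channel that S100A10 and annexin A2 bring to the membrane, which rose from 2.30 ± 0.315 to 5.37 ± 1.87 CPM (edgeR adjusted p = 0.0607). *ANXA2* itself was at 3380 ± 101 CPM in Control and 2540 ± 149 CPM in CTCFL-OE (edgeR adjusted p = 0.458). When CTCFL-KD replicate 1 was left out it passed in both treated groups, with log2 fold changes of -0.41 (edgeR adjusted p = 0.0565) and -0.81 (adjusted p = 0.0013). In that fit *ANXA1* passed in CTCFL-OE (-0.69, edgeR adjusted p = 0.0209) and not in CTCFL-KD (-0.18, adjusted p = 0.405), and *ANXA6* and *ANXA11* passed in neither. In CTCFL-KD 4 partners rose and 3 fell, which is 36.8% against 38.2% of all genes tested. *TRPV6* rose further, to 18.3 ± 1.62 CPM (log2 fold change 2.99, edgeR adjusted p = 2.63e-05), *SYT1*, a calcium sensor of vesicle release in the FGF1 complex with S100A13, rose by 1.58, and *BSG*, a surface receptor of S100A9, rose by 1.40. *CD44*, a hyaluronan receptor, fell from 63.7 ± 1.43 to 8.74 ± 0.582 CPM (edgeR adjusted p = 0.000398). The median of the list was -0.09 in CTCFL-OE and 0.17 in CTCFL-KD. Apart from the annexin values given without CTCFL-KD replicate 1, these counts and values are of the fit to all 9 libraries. When CTCFL-KD replicate 1 was left out, 3 partners rose and 5 fell in CTCFL-OE (42.1% against 27.4%), 4 rose and 5 fell in CTCFL-KD (47.4% against 49.9%), and the log2 fold change of *BSG* in CTCFL-KD was 0.94.

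Among 44 other EF-hand genes 38 were tested, with 2 lower in CTCFL-OE and none higher (5.26%, against 3.15% of all genes tested). These were the calpain *CAPN2* (206 ± 4.41 to 119 ± 8.40 CPM, edgeR adjusted p = 0.0496) and the neuronal calcium sensor *NCS1* (139 ± 8.56 to 90.1 ± 12.2 CPM, adjusted p = 0.0939). In CTCFL-KD, over all libraries, 6 were higher and 13 lower (50%, against 38.2%). *CAPN2* fell further there, to 47.0 ± 6.41 CPM (edgeR adjusted p = 1.09e-05), and *EHD2*, a caveolar ATPase, fell from 17.2 ± 1.07 to 4.57 ± 0.0472 CPM (adjusted p = 1.87e-05). *NUCB1* and *RCN3*, calcium-binding proteins of the Golgi and the endoplasmic reticulum, rose by log2 fold changes of 1.86 and 2.11 (edgeR adjusted p = 0.00195 and 0.00525). Without CTCFL-KD replicate 1, 4 were higher and 13 lower in CTCFL-OE (44.7% against 27.4%), and 7 higher and 18 lower in CTCFL-KD (65.8% against 49.9%).

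**Figure D4:**
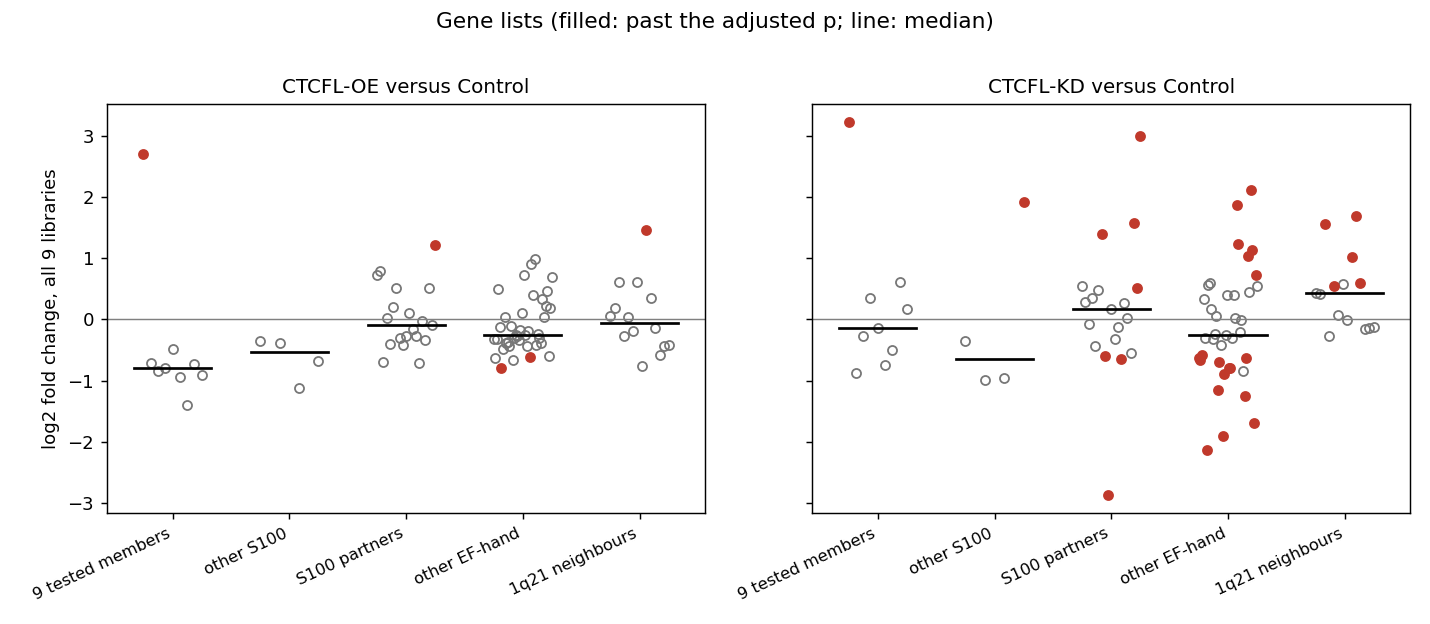
Log2 fold change (vertical axis) of each gene tested in 5 lists, in CTCFL-OE and CTCFL-KD against Control over all 9 libraries, with filled points past the adjusted p of the comparison and a line at the list median. In CTCFL-OE the median of the 9 tested genes of the family is at -0.80 and that of the 1q21 neighbours at -0.05, and *CALB2* is the filled point at 2.69.

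The S100 genes of chromosome 1 were also set beside the protein-coding genes within 250 kb that are not S100 genes. Of these 26 neighbours 14 were tested, and their median log2 fold change was -0.05 with overexpression and 0.42 with knockdown. In CTCFL-KD 5 rose and none fell (35.7%, against 38.2% of all genes tested), among them *SLC27A3* (1.69 ± 0.30, edgeR adjusted p = 0.00136) and *HRNR*, a protein of the cornified envelope (1.55 ± 0.38, adjusted p = 0.00860). Without CTCFL-KD replicate 1, 7 of 15 neighbours rose and 1 fell in CTCFL-KD (53.3% against 49.9%), with a median of 0.41. The median of the 9 tested genes of the family, *CALB2* of chromosome 16 included, was -0.14 in CTCFL-KD over all libraries and -0.65 without that library. The difference between these lists was not tested.

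Marker lists of epithelium, fibroblasts and leukocytes were summed as well. The level of the 16 genes of ovarian carcinoma epithelium, the origin of OVCAR3, was 6490 to 6570 CPM in Control, 5920 to 6080 CPM in CTCFL-OE and 19700, 11600 and 11200 CPM in CTCFL-KD, where 11 of 15 tested rose and 2 fell (86.7%, against 38.2% of all genes tested, or 49.9% without CTCFL-KD replicate 1, where the counts were also 11 and 2). In CTCFL-OE none of the 15 passed (against 3.15%), and 3 rose and 3 fell without that library (40% against 27.4%). Fibroblast genes summed to 270 to 275, 236 to 495 and 224 to 331 CPM, with 7 to 9 of 20 at 1 CPM or more and *DCN* at 0 to 4 counts. None of the 10 fibroblast genes tested passed in CTCFL-OE (against 3.15% of all genes), while 2 rose and 1 fell in CTCFL-KD (30%, against 38.2%). The collagen gene *COL1A2* had no count in any Control library, 0 to 2 with overexpression and 156, 239 and 247 with knockdown (edgeR adjusted p = 3.91e-06). *POSTN*, which encodes the matrix protein periostin, rose from 0.131 ± 0.11 to 0.865 ± 0.185 CPM in CTCFL-KD (edgeR adjusted p = 0.00295), and *MMP2*, a matrix metalloproteinase, fell from 91.1 ± 1.72 to 13.6 ± 4.28 CPM (adjusted p = 0.000197). *COL3A1* had 8 or 9 counts in each CTCFL-KD library and none elsewhere. Leukocyte genes summed to 84.1 to 89.3, 92.8 to 202 and 118 to 272 CPM, with 1 to 4 of 12 at 1 CPM or more, nearly all of it *CD74*, and *PTPRC* at 0 to 8 counts. Of the 5 leukocyte genes tested none passed in CTCFL-OE (against 3.15%), and 3 rose and 1 fell in CTCFL-KD (80%, against 38.2%). Without CTCFL-KD replicate 1 the leukocyte counts were 1 higher in CTCFL-OE (20% against 27.4%), and 2 higher and 1 lower in CTCFL-KD (60% against 49.9%). Without that library 11 fibroblast genes were tested, with 1 higher in CTCFL-OE (9.09% against 27.4%), and 3 higher and 1 lower in CTCFL-KD (36.4% against 49.9%). In bulk RNA, fewer cells of a kind and less RNA per cell cannot be told apart, and the part of such shifts in the S100 levels was not tested.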

How the data were processed

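Gene counts of 9 OVCAR3 libraries were used as deposited. The authors used Trimmomatic for trimming, STAR for alignment to GRCh38 and featureCounts of Rsubread v1.32.4 for counting, so the deposited values are raw counts. The submitters' processing notes also name kallisto, and the annotation release, strand setting and treatment of multi-mapped reads are not given in the sources used here. The 9 library files matched the columns of the matrix. GENCODE release 44 named 60463 of 60660 identifiers.

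Counts were fitted with edgeR 4.0.16 in R 4.3.3 (filterByExpr, TMM, robust quasi-likelihood test, condition only, all 9 libraries), with Benjamini-Hochberg adjustment over 17794 genes. Thresholds were those of the study: adjusted p under 0.1 for CTCFL-OE, under 0.05 for CTCFL-KD, and a log2 fold change beyond 1 for a differentially expressed gene (DEG). The comparison of CTCFL-KD with CTCFL-OE also used 0.05. Log2 CPM used a prior count of 2. RPKM used the union of exons. A count of 0 allows up to 3 counts in a library (0.117 to 0.271 CPM). Intervals cover counting error only.

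Alternatives were DESeq2 1.42.0 (the study used v1.22.2), other scalings and filters, offsets from splines (5 df) of transcript length and GC per library, a replicate block, and leaving out each library. Same-numbered Control and CTCFL-KD libraries deviated together (correlations 0.373, 0.216 and 0.261 over 12000 genes), while Control 3 with CTCFL-KD 2 reached 0.148. Same-numbered CTCFL-OE and Control libraries did not (-0.0512, 0.221 and -0.0532). The replicate block takes equal numbers as pairs in all groups, which the sources used here do not state.

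The members and lists were chosen with earlier results of these data known. Genes of the lists were named if they passed the adjusted p with groups apart, up to 4 per list by fold change (2 among the neighbours, whatever their overlap). *ANXA1*, *ANXA2*, *ANXA6*, *ANXA11*, *KRT6A*, *KRT5*, *CPA4*, *UPK3B*, *LRRN4*, *PDPN*, *COL1A2*, *COL3A1*, *POSTN*, *MMP2* and the remaining S100 genes were named after their values were seen. Counts of the 1q21 neighbours in CTCFL-OE are not reported here.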

Additional observations from a re-analysis of the deposited data

How the results depend on the processing

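Percentages in parentheses are the shares of all genes tested in the same fit. Of the genes of the family, the number that passed in CTCFL-OE (1 of 9 as reported, 3.15%) was 3 with DESeq2 on all 9 libraries (7.62%), 9 with DESeq2 (22%) or edgeR (20.2%) on the groups compared, 8 with no filter on low counts (4.01%), 0 with at least 10 counts in every library (3.3%), 2 with the replicate block (2.39%), 7 with length and GC offsets (11.3%), 9 with offsets and block (10.6%), and 9 with offsets and without CTCFL-KD replicate 1 (28.4%). In CTCFL-KD (1 as reported, 38.2%) it was 3 with DESeq2 on all libraries (31.5%), 2 with DESeq2 on the groups compared (31.2%), 4 with no filter (21.2%), 0 with 10 counts (38.6%), 3 with the block (36.9%), 6 with offsets (45%), 6 with offsets and block (45%), and 8 with offsets and without replicate 1 (50.6%). In CTCFL-KD against CTCFL-OE (1 as reported, 26.8%) it was 2 with DESeq2 on all libraries (24.4%), 0 with edgeR on the groups compared (15.5%), 0 with RLE scaling (26.9%), 4 with no filter (16.1%), 0 with 10 counts (25.4%), 2 with offsets and block (36.5%), and 2 with offsets and without CTCFL-KD replicate 1 (40.8%). With 10 counts in every library 8 genes were tested, without *CALB2*. With no filter 10 were tested, *S100P* among them, and it was not among those that passed.

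Genes of the family that were DEGs numbered 2 in CTCFL-OE with DESeq2 on all libraries (3.02%), DESeq2 (4.38%) or edgeR (4.88%) on only the 6 libraries compared, no filter (2.18%) or offsets (3.7%, 3.43% with the block, 5.15% without CTCFL-KD replicate 1), and 0 with 10 counts (1.84%). In CTCFL-KD they numbered 0 with 10 counts (20.1%), 2 with the block (22.6%), 3 with offsets (21.6%), 3 with offsets and block (21.5%) and 5 with offsets and without replicate 1 (21.4%). Against CTCFL-OE they numbered 2 with DESeq2 on all libraries (14.6%) or no filter (10.4%), and 0 with edgeR on the groups compared (13.6%), RLE scaling (16.9%), 10 counts (13.4%) or offsets (17%, 16.9% with the block, 16.8% without CTCFL-KD replicate 1). All genes passing in CTCFL-OE (561 as reported) numbered 1374 with DESeq2 on all libraries, 3773 with DESeq2 and 3450 with edgeR on the groups compared, 1517 with no filter, 2019 with offsets, 1883 with offsets and block and 5221 with offsets and without CTCFL-KD replicate 1. Against CTCFL-OE (4771 as reported) they numbered 2668 with edgeR on the groups compared and 7508 with offsets and without CTCFL-KD replicate 1.

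Leaving out 1 library at a time gave 0 to 9 genes of the family passing in CTCFL-OE (0.24 to 27.4% of all genes tested). In CTCFL-KD it gave 1 to 8 (25.8 to 49.9%), and between CTCFL-KD and CTCFL-OE 0 to 4 (17.3 to 39.7%). DEGs of the family numbered 0 to 2 (0.24 to 6.45%), 1 to 5 (19.9 to 24.7%) and 0 to 4 (13.9 to 18.6%). All genes passing numbered 44 to 5040, 4738 to 9170 and 3181 to 7297. The 4 between the treated groups were without CTCFL-KD replicate 2, where 24.9% of all genes passed and 18.6% were DEGs. The highest counts against Control were without CTCFL-KD replicate 1.

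Directions reversed in CTCFL-KD for *S100A6* (-0.039 with the block, -0.34 with offsets, -0.39 with offsets and block, -0.64 with offsets and without replicate 1), *S100A13* (-0.18, -0.27 and -0.64 with these offsets) and *S100A4* (-0.30 with offsets and without replicate 1). Against CTCFL-OE they reversed for *S100A16* (-0.13 with offsets, -0.12 with offsets and block, -0.21 with offsets and without replicate 1), and for *S100A11* (-0.18) and *S100A14* (-0.13) in the last fit. Over the fits that left out 1 library, CTCFL-KD values ran from -0.34 to 0.95 for *S100A4*, -0.64 to 0.47 for *S100A6*, -0.65 to 0.68 for *S100A13* and -0.65 to 0.063 for *S100A14*. Against CTCFL-OE they ran from -0.83 to 0.11 for *S100A10*, -0.22 to 0.84 for *S100A11*, -0.16 to 0.56 for *S100A14*, -0.27 to 0.40 for *S100A16* and -0.012 to 0.78 for *CALB2*. The lowest of each range was without CTCFL-KD replicate 1. The cause was not tested. With the replicate block *S100A16* also passed in CTCFL-OE (edgeR adjusted p = 0.0957), where numbers did not pair the libraries. Among the 9 genes the block changed no other call than this and the *S100A10* and *S100A16* calls in CTCFL-KD given with the results. No direction reversed in CTCFL-OE against Control.

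At 3 replicates a group, *CALB2* and *S100P* were limited by depth. The knockdown RNA came from earlier experiments, per the study's methods, and the replicates were of 1 cell line.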
